A study of Homo sapiens with 12 samples.

Results

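Messenger RNA levels of 5 receptor genes of antibody and complement recognition were followed in NB4 cells: FCAR, the IgA receptor (CD89); FCER1G, the common gamma chain, which signals for other Fc receptors; FCGR2A, a low-affinity IgG receptor (CD32A); FCGRT, the neonatal Fc receptor; and CR1, complement receptor 1 (CD35). The 5 genes were taken by name, and each had 1 probe set annotated to it alone, so all 5 were measured among 18404 genes in all. NB4 is an established line of human acute promyelocytic leukemia, and all-trans retinoic acid (ATRA) drives it toward granulocytes. Total RNA was hybridised to 12 Affymetrix ST arrays, and the values are log2 levels.

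The control arms held wild type NB4 cells and duplicates of NB4 cells expressing a scrambled shRNA. The knockdown arms held duplicates of NB4 cells with shRNA1 and a single line with shRNA2, both directed at HOTAIRM1, a noncoding transcript of the HOXA locus. Each arm of 3 arrays was either untreated or given 0.5 uM ATRA for 96 hours. The scrambled and shRNA cells were stable lentiviral lines, sorted for GFP and grown from single cells, whereas wild type cells carried no vector. The labels call the scrambled and shRNA1 duplicates biological without saying whether they were separate clones, so p values rest on the spread between these samples, which may be partly technical. No probe set is named for HOTAIRM1, so the depth of the knockdown was not examined.

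Fc receptors couple antibody-coated particles to phagocytosis, killing and cytokine release. FCAR has no signalling motif of its own and works through FCER1G, whose cytoplasmic tail carries an immunoreceptor tyrosine-based activation motif (ITAM), whereas FCGR2A carries such a motif in its own tail. FCGRT is built like an MHC class I heavy chain, pairs with beta 2 microglobulin and returns IgG from endosomes to the cell surface. CR1 binds particles coated with C3b and C4b and limits complement activation, and together with the Fc receptors it belongs to the phagocytic equipment of the mature neutrophil.

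RefSeq promoter windows of 300 bases (250 before the transcription start and 50 after it) were at hand for 4 of the 5 genes. They were searched on both strands for GAGGAA (the core that the myeloid factor PU.1 binds), TTGCNNAA (a C/EBP type), TTCNNNGAA (a gamma-activated site, as STAT factors bind) and AGGTCA (the core of retinoid response elements). The first was held by 27.9% of 35116 RefSeq promoters, the second by 10.5%, the third by 7.66% and AGGTCA by 13.8%. The 3 windows with a match are shown because members of this receptor group rose together with ATRA. They are on the plus strand of GRCh38.p14: FCGR2A at chr1:161505207-161505506, FCGRT at chr19:49512411-49512710 and CR1 at chr1:207495907-207496206. Capitals mark GAGGAA in FCGRT, GAGGAA read on the reverse strand in FCGR2A, and AGGTCA read on the reverse strand in CR1.
FCGR2A: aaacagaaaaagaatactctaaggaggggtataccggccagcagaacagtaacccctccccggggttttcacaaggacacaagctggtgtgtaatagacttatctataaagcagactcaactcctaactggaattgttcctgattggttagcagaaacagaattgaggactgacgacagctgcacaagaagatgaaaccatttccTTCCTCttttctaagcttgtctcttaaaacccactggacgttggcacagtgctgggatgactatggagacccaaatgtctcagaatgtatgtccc
FCGRT: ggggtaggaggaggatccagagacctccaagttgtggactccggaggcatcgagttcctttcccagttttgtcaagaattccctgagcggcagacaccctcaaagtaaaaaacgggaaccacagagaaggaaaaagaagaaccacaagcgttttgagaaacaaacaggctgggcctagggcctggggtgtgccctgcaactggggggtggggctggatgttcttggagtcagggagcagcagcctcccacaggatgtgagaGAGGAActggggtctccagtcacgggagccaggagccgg
CR1: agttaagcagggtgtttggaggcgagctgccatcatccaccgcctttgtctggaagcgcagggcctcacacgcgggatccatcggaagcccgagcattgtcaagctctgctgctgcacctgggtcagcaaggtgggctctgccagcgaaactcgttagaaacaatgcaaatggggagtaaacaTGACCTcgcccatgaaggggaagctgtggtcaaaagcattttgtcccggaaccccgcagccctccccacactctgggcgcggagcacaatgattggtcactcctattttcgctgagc
The FCER1G window (chr1:161215045-161215344) held none of the 4. The GAGGAA match lay before the start in FCGR2A and after it in FCGRT, and neither these nor the AGGTCA match in CR1 say whether a factor is bound.

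Array medians ran from 7.73 to 7.81, and no pair of arrays shared more than 5 identical gene values. The number of arrays limits the precision, and the files carry no detection calls, so a low level was not judged as present or absent. On the first principal component of all genes, untreated scrambled replicate 2 stood at -10.59, between the other untreated arrays (-41.21 to -32.49) and the ATRA arrays (20.80 to 43.55). Results were also computed with each array left out in turn, this one included. Of 8 measured promyelocyte markers, which include MPO, ELANE and PML, 1 fell with ATRA in control cells (ANPEP) and 2 in knockdown cells (CTSG and ANPEP), where 20.9% and 14.7% of all genes fell. Their summed log2 level went from 81.3 to 84.0 untreated to 75.6 to 80.4 after ATRA in control arrays. In knockdown arrays it went from 83.3 to 84.5 to 78.9 to 81.8, without overlap in either. These sums rest largely on ANPEP (-1.83 in control and -1.44 in knockdown cells) and CTSG (-1.08 and -2.45). The other markers changed by between -0.59 (PRTN3) and 0.08 (KIT) in control cells, and between -0.23 (MPO) and 0.38 (PML) in knockdown cells. Of 9 measured monocyte and macrophage markers, 5 rose in control cells (CD14, CSF1R, CD163, CD68 and CX3CR1), against 15.2% of all genes. The summed log2 level of these 9 markers went from 64.7 to 65.6 in untreated control arrays to 71.1 to 71.3 after ATRA. In knockdown arrays it went from 64.6 to 64.9 to 69.2 to 70.5, and 4 of the 9 rose, against 10.1% of all genes. The part of these shifts in the receptor results was not tested, and in bulk RNA fewer cells of a type and less RNA per cell cannot be told apart.

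All 5 receptors rose with ATRA in control cells, by between 0.91 and 2.46 on the log2 scale, and all 5 rose in knockdown cells, by between 0.86 and 2.49 (limma, Benjamini-Hochberg adjusted p under 0.05). Of all genes, 15.2% were called higher in control cells and 10.1% in knockdown cells. The median change of the 5 was 1.99 in control cells, where the median of all genes was 0.05, and 2.07 in knockdown cells, where it was -0.03. Each receptor was higher after ATRA in all 6 lines (wild type, the scrambled duplicates, the shRNA1 duplicates and shRNA2). Here the duplicates count as separate lines, which the labels do not establish. The arrays of a line were paired by label, and the values did not clearly bear out this pairing. The control arrays after ATRA lay above all untreated control arrays for all 5 genes, as they did for 25.2% of genes. In knockdown cells this held for 4 of the 5 (all but FCGR2A), against 16.7% of genes. The tests against ATRA use the knockdown and the control arms separately and share no array, but they share 1 estimate of the spread.

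**Figure D1:**
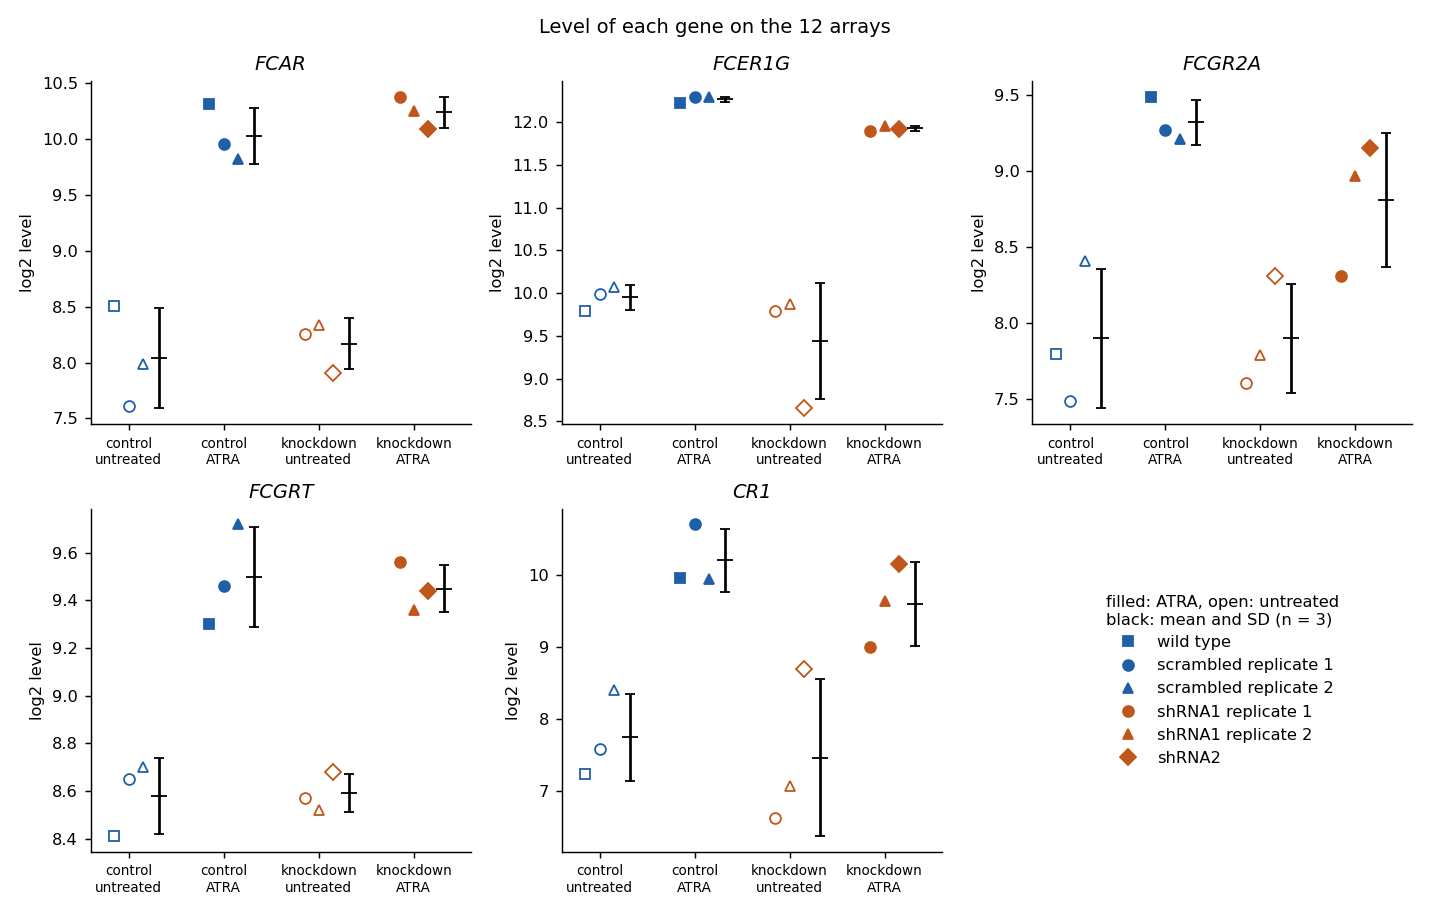
Log2 level of each receptor gene on the 12 arrays, by arm on the horizontal axis; open symbols are untreated, filled symbols are after ATRA, and black bars are the mean and SD of 3 arrays. ATRA arrays sit above untreated ones of the same arm throughout, except that FCGR2A in shRNA1 replicate 1 after ATRA (8.31) meets untreated shRNA2 (8.31).

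FCAR, which binds IgA on neutrophils and monocytes, stood in untreated control cells at 8.51 (wild type), 7.61 (scrambled replicate 1) and 7.99 (scrambled replicate 2). After ATRA the same lines stood at 10.31, 9.96 and 9.82. All ATRA arrays lay above all untreated ones, and wild type was the highest control array in both states. The mean went from 8.04 ± 0.45 (SD, n = 3) to 10.03 ± 0.25, a change of 1.99 (SE 0.20, 95% interval 1.54 to 2.43, 3.96-fold, adjusted p = 8.32e-05). In knockdown cells FCAR stood at 8.26 (shRNA1 replicate 1), 8.34 (shRNA1 replicate 2) and 7.91 (shRNA2) untreated, and at 10.38, 10.25 and 10.09 after ATRA. These arrays again did not overlap between states, and shRNA2 was the lowest of the knockdown arrays in both. The knockdown mean went from 8.17 ± 0.23 to 10.24 ± 0.14, a change of 2.07 (SE 0.20, adjusted p = 0.000148). The rise per line ran from 1.79 in wild type to 2.34 in scrambled replicate 1.

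FCER1G, the ITAM chain that FCAR and several other Fc receptors need, stood at 9.79, 9.99 and 10.07 in untreated wild type cells and the scrambled duplicates. After ATRA these lines stood at 12.23, 12.29 and 12.29. The ATRA arrays were far apart from the untreated ones and lay close to each other. The change was 2.32 (SE 0.24, 95% interval 1.79 to 2.85, adjusted p = 8.77e-05), from a mean of 9.95 ± 0.15 (SD, n = 3) to 12.27 ± 0.03. In knockdown cells the untreated values were 9.79 and 9.87 in the shRNA1 duplicates and 8.65 in shRNA2, and the ATRA values were 11.90, 11.96 and 11.92. Untreated shRNA2 was the lowest of the 12 arrays for this gene, whereas after ATRA shRNA2 lay between the shRNA1 duplicates. The knockdown mean went from 9.44 ± 0.68 to 11.93 ± 0.03, a change of 2.49 (SE 0.24, adjusted p = 0.000148). The rise was 3.27 in shRNA2 and 2.09 to 2.44 in the other lines, and without untreated shRNA2 the knockdown change was 2.10 (adjusted p = 3.28e-06).

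FCGR2A, the IgG receptor that carries its own ITAM, stood in untreated control cells at 7.80 (wild type), 7.49 and 8.41 (the scrambled duplicates) and after ATRA at 9.49, 9.27 and 9.21. The arrays of the 2 states did not overlap, and untreated scrambled replicate 2, the array that stood apart on the first component, was the highest untreated one. The control change was 1.42 (SE 0.26, 95% interval 0.85 to 1.99, 2.68-fold, adjusted p = 0.00158), and without that array it was 1.68 (adjusted p = 0.000416). In knockdown cells the values were 7.61, 7.79 and 8.31 untreated and 8.31, 8.97 and 9.15 after ATRA, in the order shRNA1 replicate 1, shRNA1 replicate 2 and shRNA2. Here the states met, since shRNA1 replicate 1 after ATRA reached only the level of untreated shRNA2. The knockdown change was 0.91 (SE 0.26, 95% interval 0.34 to 1.48, 1.87-fold, adjusted p = 0.0242), from 7.90 ± 0.36 (SD, n = 3) to 8.81 ± 0.44. This call was the only one of the 10 ATRA calls of the receptors that depended on 1 array. Without shRNA2 after ATRA the change was 0.73 (adjusted p = 0.101), and without untreated shRNA1 replicate 1 it was 0.76 (adjusted p = 0.092). Without shRNA1 replicate 2 it was 0.83 (adjusted p = 0.0829) where the ATRA array was left out and 0.85 (adjusted p = 0.0764) where the untreated one was. With the scrambled and shRNA1 arrays alone it was 0.94 (adjusted p = 0.088).

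FCGRT, which recycles IgG, stood at 8.41, 8.65 and 8.70 in untreated wild type cells and the scrambled duplicates and at 9.30, 9.46 and 9.72 after ATRA. The lines kept their order between the states, and no ATRA array reached down to an untreated one. The change was 0.91 (SE 0.11, 95% interval 0.66 to 1.16, 1.88-fold, adjusted p = 0.000184). In knockdown cells FCGRT went from 8.57, 8.52 and 8.68 to 9.56, 9.36 and 9.44 (shRNA1 replicate 1, shRNA1 replicate 2, shRNA2). The 6 knockdown arrays fell into separate ranges by state, and the change was 0.86 (SE 0.11, adjusted p = 0.00054). Its rise was the smallest of the 5 in control and knockdown cells alike, and also the most even, from 0.76 to 1.02 over the 6 lines.

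CR1 varied most between arrays of 1 arm. In untreated control cells it stood at 7.24 (wild type), 7.59 and 8.41 (the scrambled duplicates), and after ATRA at 9.96, 10.71 and 9.95. The states did not overlap, and untreated scrambled replicate 2 was again the highest untreated control array. The change was 2.46 (SE 0.49, 95% interval 1.39 to 3.54, 5.52-fold, adjusted p = 0.00259), or 2.80 (adjusted p = 0.00171) without that array. In knockdown cells the values were 6.63, 7.08 and 8.70 untreated and 9.0, 9.64 and 10.16 after ATRA (shRNA1 replicate 1, shRNA1 replicate 2, shRNA2). The lowest ATRA array, shRNA1 replicate 1, lay just above untreated shRNA2. The knockdown change was 2.13 (SE 0.49, 95% interval 1.06 to 3.20, 4.38-fold, adjusted p = 0.008), from 7.47 ± 1.09 (SD, n = 3) to 9.60 ± 0.58. Per line the rise of CR1 ran from 1.46 in shRNA2 and 1.54 in scrambled replicate 2, the lines with the highest untreated levels, to 3.13 in scrambled replicate 1.

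**Figure D2:**
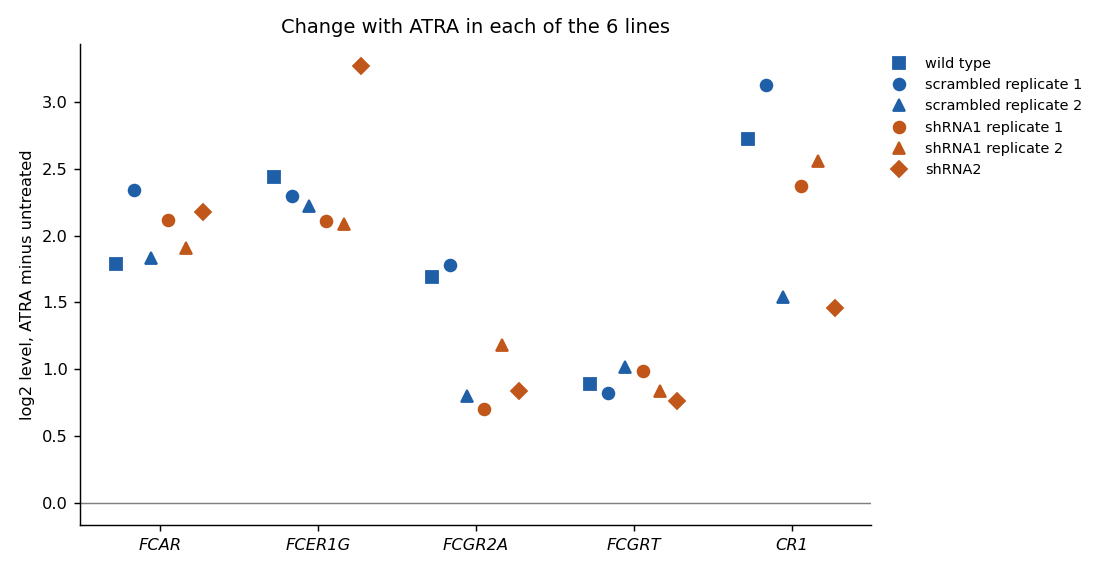
Change in log2 level with ATRA (ATRA minus untreated) of each receptor gene in each of the 6 lines. Duplicates count as separate lines, and arrays are paired by label. Blue symbols are control lines and orange symbols knockdown lines. Every point lies above 0, FCGRT is the tightest (0.76 to 1.02), and shRNA2 stands out for FCER1G (3.27).

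Knockdown was next set against control within each state. None of the 5 receptors was called, either before or after ATRA, and none was called for the difference between the responses. Before ATRA no gene at all was called (0 of 18404 in limma, with 727 at an unadjusted p under 0.05). After ATRA 11 genes were called, or 0.0598%, with 5171 (28.1%) at an unadjusted p under 0.05. For the difference between the responses 0 genes were called, with 2815 at an unadjusted p under 0.05. The 95% intervals give the sizes that the arrays allow for each receptor. Before ATRA the difference was 0.13 for FCAR (95% interval -0.32 to 0.58), 0.00 for FCGR2A (-0.57 to 0.58) and 0.01 for FCGRT (-0.24 to 0.26). It was -0.51 for FCER1G (-1.05 to 0.02) and -0.28 for CR1 (-1.35 to 0.79), and the adjusted p was 0.999 for all 5. FCER1G differed by -0.12 without untreated shRNA2, the array at 8.65. CR1 ran from -0.89 (without untreated shRNA2) to 0.14 (without untreated shRNA1 replicate 1), and was also above 0 without untreated scrambled replicate 2 (0.06).

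After ATRA, FCER1G and FCGR2A were lower on all 3 knockdown arrays than on any control array, as were 20.7% of all genes. FCER1G differed by -0.35 (95% interval -0.88 to 0.18, adjusted p = 0.36), from 12.27 in control to 11.93 in knockdown cells, and both ATRA arms had an SD of 0.03. The shared estimate of its spread includes the untreated knockdown arm with an SD of 0.68. The adjusted p was 0.1 in a fit of the ATRA arms alone and 0.056 without untreated shRNA2, with the difference at -0.35 in both. Over the limma fits with 1 array left out, the adjusted p of FCER1G ran from 0.056 to 0.484. FCGR2A differed by -0.51 (95% interval -1.08 to 0.06, adjusted p = 0.219), from 9.32 ± 0.15 (SD, n = 3) to 8.81 ± 0.44. CR1 differed by -0.61 (-1.68 to 0.46, adjusted p = 0.427), FCAR by 0.21 (-0.24 to 0.66, adjusted p = 0.513) and FCGRT by -0.04 (-0.29 to 0.21, adjusted p = 0.823). FCGRT had the narrowest interval in either state, and CR1 the widest. Leaving out 1 array moved these differences after ATRA without a call. FCGR2A ran from -0.68 (without ATRA-treated shRNA2) to -0.26 (without ATRA-treated shRNA1 replicate 1), and CR1 from -0.89 to -0.31 without the same arrays, with -0.36 without ATRA-treated scrambled replicate 1. FCAR ran from 0.11 (without ATRA-treated scrambled replicate 2) to 0.35 (without ATRA-treated wild type).

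The response to ATRA in knockdown cells minus that in control cells was 0.08 for FCAR (95% interval -0.55 to 0.72, adjusted p = 0.897) and 0.17 for FCER1G (-0.59 to 0.92, adjusted p = 0.822). It was -0.52 for FCGR2A (-1.32 to 0.29, adjusted p = 0.483), -0.05 for FCGRT (-0.40 to 0.30, adjusted p = 0.886) and -0.33 for CR1 (-1.85 to 1.18, adjusted p = 0.824). For FCGR2A the rises were 0.70, 1.18 and 0.84 in the knockdown lines (shRNA1 duplicates, shRNA2) and 1.69, 1.78 and 0.80 in the control lines (wild type, scrambled duplicates). The ranges overlapped, with shRNA1 replicate 1 the lowest line and scrambled replicate 2 the next. With 1 array left out the FCGR2A difference ran from -0.77 (without untreated scrambled replicate 2) to -0.27 (without ATRA-treated shRNA1 replicate 1).

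**Figure D3:**
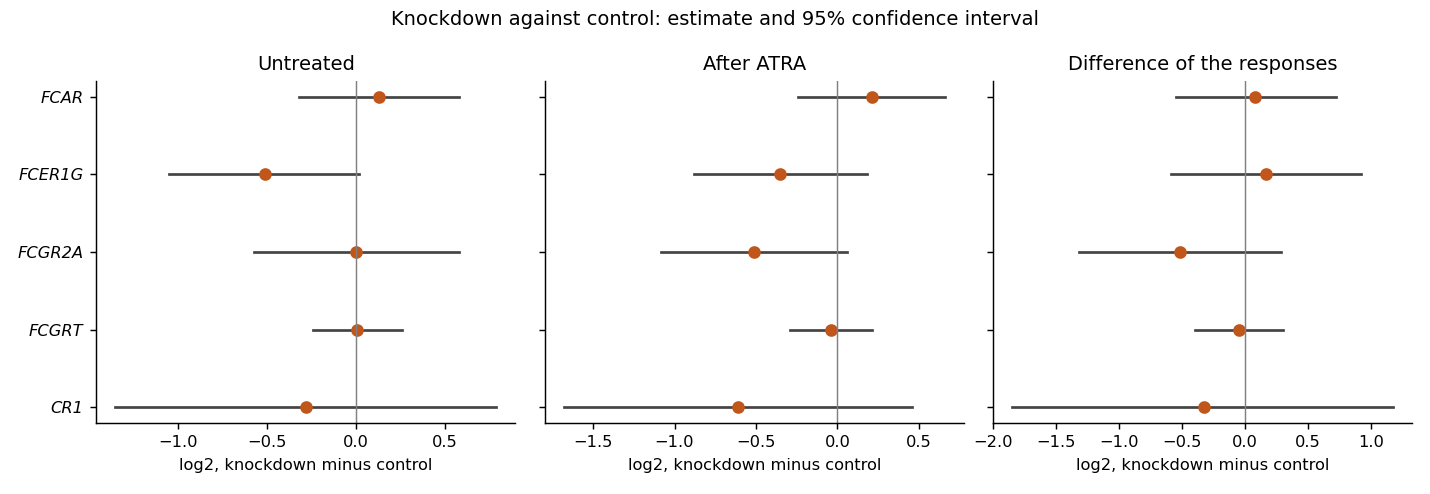
Knockdown minus control on the log2 scale for each receptor gene before ATRA, after ATRA and for the difference of the ATRA responses; points are estimates and lines 95% confidence intervals of the limma fit. All 15 intervals cover 0, and those of CR1 are the widest (-1.35 to 0.79 before ATRA).

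Each construct was also set against the scrambled duplicates. For CR1 the mean of the shRNA1 duplicates minus the scrambled mean was -1.15 before and -1.01 after ATRA, and shRNA2 minus the scrambled mean was 0.70 and -0.18. For FCAR the values were 0.49 and 0.42 with shRNA1 and 0.11 and 0.20 with shRNA2. FCER1G was lower than the scrambled mean with either construct in both states, with differences of -0.20 and -0.36 for shRNA1 and of -1.38 and -0.38 for shRNA2. FCGR2A after ATRA was -0.60 with shRNA1 and -0.09 with shRNA2. The reference matters for the sign, since the scrambled mean minus wild type was -0.71 before and -0.42 after ATRA for FCAR and 0.76 and 0.37 for CR1. Against wild type, shRNA2 stood at -0.60 and -0.21 for FCAR and at 1.46 and 0.20 for CR1. Wild type and shRNA2 are 1 array in each state, so the shRNA2 values have no replicate, and a vector effect, a clone effect and an shRNA effect cannot be told apart.

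The Fc gamma receptor genes arose by duplication, and their probes can bind several members. The FCGR2A probe set is annotated to FCGR2A alone, but the extracellular parts of FCGR2A, FCGR2B and FCGR2C are alike, so its level may hold signal of the others. The shared probe sets were therefore read from a fit of 19792 probe sets that also holds those annotated to several genes, in which 15.1% were called higher with ATRA in control cells and 9.98% in knockdown cells. Both probe sets of FCGR1A and its pseudogenes FCGR1BP and FCGR1CP, the high-affinity IgG receptor family that signals through FCER1G, rose. Probe set 7905060 rose by 1.47 in control (adjusted p = 0.000253) and 1.69 in knockdown cells (adjusted p = 0.000312). Probe set 7919133 rose by 1.85 (adjusted p = 7.95e-05) and 1.86 (adjusted p = 0.000166). The probe set of FCGR2B, an inhibitory receptor, and FCGR2C stood at 8.95, 9.03 and 9.27 in untreated control and 11.32, 10.81 and 10.51 in ATRA control arrays (wild type and the scrambled duplicates). In the shRNA1 duplicates and shRNA2 it went from 8.99, 8.89 and 9.68 to 9.97, 10.26 and 10.63. It rose in both kinds of cells, by 1.79 (adjusted p = 0.000299) and 1.10 (adjusted p = 0.00697).

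The probe set shared by FCGR3A and FCGR3B, the CD16 genes of natural killer cells and neutrophils, was the Fc gamma receptor probe set with the largest gap between the arms after ATRA. In control arrays it went from 6.66, 6.55 and 6.69 to 7.79, 8.60 and 7.67 (wild type and the scrambled duplicates). In knockdown arrays it went from 6.60, 6.79 and 6.79 to 6.88, 7.01 and 7.81 (the shRNA1 duplicates and shRNA2). The shRNA1 arrays after ATRA stayed near the untreated range, while shRNA2 lay among the control arrays. It rose in control cells, by 1.38 (SE 0.25, adjusted p = 0.00157), and the change in knockdown cells was 0.51 (SE 0.25, adjusted p = 0.179). The difference after ATRA was -0.78 (95% interval -1.33 to -0.23) and missed the threshold (adjusted p = 0.0895). The difference between the responses was -0.87 (adjusted p = 0.303), so the responses were not shown to differ. With 1 array left out the knockdown change was 0.22 without ATRA-treated shRNA2 and at most 0.69, and no call was gained. The difference after ATRA then ran from -1.07 (without ATRA-treated shRNA2) to -0.49 (without ATRA-treated scrambled replicate 1), and the response difference was -0.58 without the latter. The probe sets annotated to FCGR2B alone (0.89 in control, adjusted p = 0.0546, and 0.77 in knockdown cells, adjusted p = 0.119) and to FCGR3A alone (0.33, adjusted p = 0.0637, and 0.13, adjusted p = 0.529) did not pass the test. Without ATRA-treated scrambled replicate 2 the FCGR2B change in control cells was 1.25 (adjusted p = 0.00966 in the fit of single-gene probe sets). In that fit FCGR2B also passed in knockdown cells without ATRA-treated wild type (0.77, adjusted p = 0.00791), and FCGR3A in control cells without untreated scrambled replicate 1 (0.44, adjusted p = 0.0262).

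**Figure D4:**
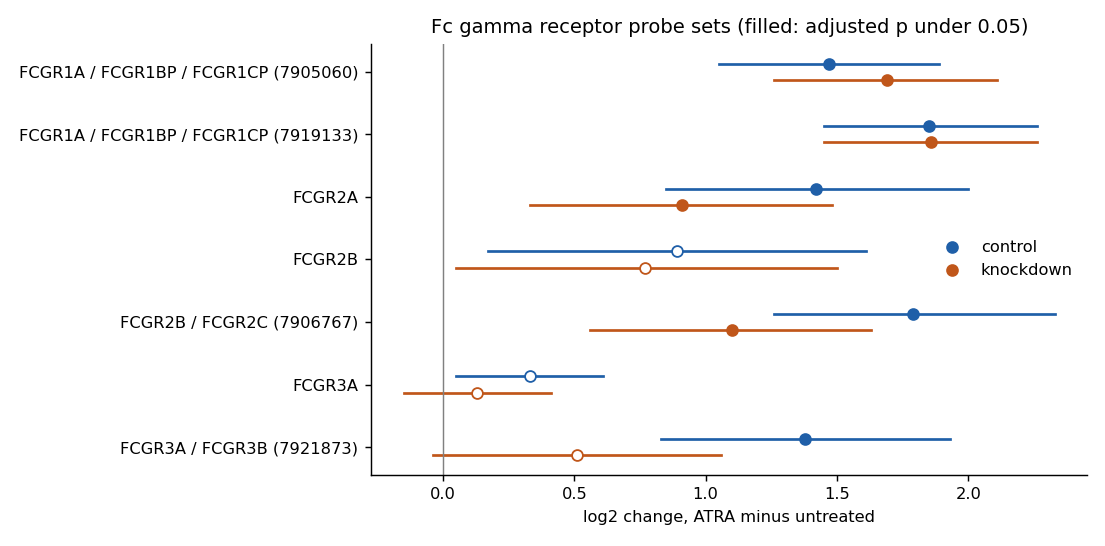
Change in log2 level with ATRA for each Fc gamma receptor probe set in control (blue) and knockdown (orange) cells; points are estimates, lines 95% intervals, and filled points have an adjusted p under 0.05. The FCGR1A family rises alike in both (1.85 and 1.86 for 7919133), while FCGR3A with FCGR3B is filled in control cells (1.38) and open in knockdown cells (0.51).

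Of 16 measured other Fc receptor genes, 6 rose in control cells (TRIM21, FCER2, FCMR, FCRL1, FCRL6 and FCRLB) and 1 in knockdown cells (TRIM21). The medians were 0.24 and 0.02. Among all genes, 15.2% rose in control and 10.1% in knockdown cells, with medians of 0.05 and -0.03. TRIM21, the cytosolic antibody receptor, changed by 0.85 (adjusted p = 0.00245) and 0.87 (adjusted p = 0.00301). FCER2, the low-affinity IgE receptor, and FCRL1, a B cell protein of the Fc receptor-like family, rose by only 0.32 (adjusted p = 0.0206) and 0.34 (adjusted p = 0.011) in control cells. In knockdown cells their values were 0.02 and 0.00, and with quantile normalization neither passed in control cells (0.19, adjusted p = 0.137, and 0.24, adjusted p = 0.0646). The count of 6 fell to 2 without untreated wild type, to 3 without ATRA-treated wild type and to 4 without ATRA-treated scrambled replicate 1 or untreated scrambled replicate 2. FCER1A, the ligand-binding chain of the mast cell IgE receptor, did not pass (-0.05 in control cells, adjusted p = 0.691). Of 9 measured markers of B, T and natural killer cells, CD8A and KLRD1 rose and CD79B fell in control cells. There 15.2% of all genes rose and 20.9% fell. The summed log2 level of these markers ran from 62.3 to 64.9 untreated and from 61.8 to 62.4 after ATRA. Their part in the small changes above was not tested.

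Of 14 measured complement receptors and membrane regulators beside CR1, 10 rose in control and 10 in knockdown cells, with medians of 1.15 and 1.31. The shares of all genes that rose were 15.2% and 10.1%. ITGAX, the alpha chain of complement receptor 4, rose by 2.48 in control (adjusted p = 0.000385) and 2.96 in knockdown cells (adjusted p = 0.000372). The anaphylatoxin receptors C5AR1 (2.51, adjusted p = 0.000292, and 2.06, adjusted p = 0.00148) and C3AR1 (2.29, adjusted p = 0.000311, and 2.33, adjusted p = 0.00058) rose in both. C1QBP, a mitochondrial protein that binds C1q, fell in both (-0.97 and -0.61), and CALR, a chaperone that also binds C1q, fell in knockdown cells (-0.72, adjusted p = 0.0306). CR2, the B cell receptor for C3d and the gene next to CR1, did not pass the test in either (0.12, adjusted p = 0.358, and -0.22, adjusted p = 0.134).

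Of 19 measured ITAM adaptors and receptors that pair with them, 9 rose in control and 10 in knockdown cells, with medians of 0.46 and 0.44. The shares of all genes, here and for the inhibitory receptors below, were 15.2% and 10.1%. TYROBP (DAP12), the other main ITAM adaptor of myeloid cells beside FCER1G, rose by 1.24 (adjusted p = 0.000316) and 1.47 (adjusted p = 0.000318). LILRA5, which signals through FCER1G, rose by 2.57 (adjusted p = 0.00245) and 2.15 (adjusted p = 0.00911), and LILRA3, a soluble relative, by 1.03 and 0.76. Of 13 measured inhibitory receptors with an ITIM, the tyrosine motif that recruits phosphatases, 10 rose in control and 11 in knockdown cells, with medians of 0.86 and 1.04. SIRPA, the receptor for CD47, rose by 1.72 and 2.18, SIGLEC7, which binds sialic acid, by 1.29 and 1.15, and the lectin CLEC4A by 1.78 and 1.10 (adjusted p from 5.09e-05 to 0.00597). Activating and inhibitory receptors thus rose in the same samples. Without ATRA-treated shRNA1 replicate 2 the knockdown counts were 5 for ITAM and 6 for ITIM genes, and the ITAM count was 6 without either shRNA2 array.

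Of 28 measured signalling genes downstream of Fc receptors, 8 rose and 2 fell in control cells. In knockdown cells 12 rose and 1 fell, and the medians were 0.18 and 0.34. The medians of the whole gene set were 0.05 and -0.03. In the control arms 15.2% of that set was called higher with ATRA and 20.9% lower. In the knockdown arms the shares were 10.1% and 14.7%. The count of 8 was 11 without untreated scrambled replicate 2, 4 without either wild type array, and 5 without either array of scrambled replicate 1. LYN, a Src family kinase that phosphorylates ITAMs, rose by 1.02 (adjusted p = 0.000508) and 1.21 (adjusted p = 0.000474). PTPRC (CD45), the phosphatase that activates Src kinases, rose by 1.48 and 1.65, and CBL, a ubiquitin ligase of activated receptors, by 0.68 and 1.0. The genes that fell in control cells were SYK, the kinase that docks on phosphorylated ITAMs (-0.52, adjusted p = 0.00806), and the adaptor LAT2 (-0.68, adjusted p = 0.00855). LAT2 also fell in knockdown cells (-0.67, adjusted p = 0.0124), where SYK stood at -0.07 (adjusted p = 0.768); SYK and LAT2 were chosen for naming after their values were seen.

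Of 12 measured genes among the FCGRT partner and MHC class I-like relatives, 4 rose in control cells (B2M, MR1, CD1C and PROCR). In knockdown cells 3 rose (B2M, MR1 and CD1C), and the medians were 0.24 and 0.12. The shares of all genes that rose were 15.2% and 10.1%. B2M, which FCGRT needs to reach the surface, rose by 1.0 (adjusted p = 0.000658) and 1.13 (adjusted p = 0.00064), beside the FCGRT changes of 0.91 and 0.86. MR1, which presents vitamin B metabolites, rose by 1.40 and 1.80. CD1C changed by 0.36 (adjusted p = 0.0131) and 0.37 (adjusted p = 0.0146), and without ATRA-treated shRNA2 its knockdown change was 0.27 (adjusted p = 0.0604). With quantile normalization its control change was 0.23 (adjusted p = 0.0882). The control count of 4 was 6 without untreated scrambled replicate 1, and the knockdown count of 3 was 2 without ATRA-treated shRNA2.

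Of 14 measured transcription factors of Fc receptor and granulocyte genes, 3 rose in control cells (SPI1, ELF1 and IRF8) and 2 fell (CEBPA and GFI1). In knockdown cells 5 rose (SPI1, CEBPB, CEBPE, IRF1 and SP1), and CEBPA and GFI1 fell. The medians were 0.25 and 0.07, beside 0.05 and -0.03 for the whole gene set. Of that whole set, 15.2% was called higher with ATRA and 20.9% lower in the control arms. The knockdown arms gave shares of 10.1% and 14.7%. CEBPA, a factor of early granulopoiesis, fell in control (-0.84, adjusted p = 0.000223) and knockdown cells (-0.59, adjusted p = 0.00257), as did GFI1, a repressor of monocyte genes (-1.02 and -0.76). SPI1, which encodes PU.1, rose by 0.56 (adjusted p = 0.0159) and 0.79 (adjusted p = 0.00328). IRF8 rose by 1.27 in control cells (adjusted p = 0.0156), and the value in knockdown cells was 0.91 (adjusted p = 0.0842). The IRF8 call was lost without untreated wild type (1.11, adjusted p = 0.0656) and without ATRA-treated wild type (0.86, adjusted p = 0.0525). In knockdown cells IRF8 passed without ATRA-treated shRNA1 replicate 1 (1.22, adjusted p = 0.0381), ATRA-treated wild type (0.91, adjusted p = 0.0259) or ATRA-treated scrambled replicate 2 (0.91, adjusted p = 0.0481). The count of 3 risen factors in control cells became 8 when untreated scrambled replicate 2 was left out, 2 when untreated scrambled replicate 1 was, and 0 when either wild type array was.

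**Figure D5:**
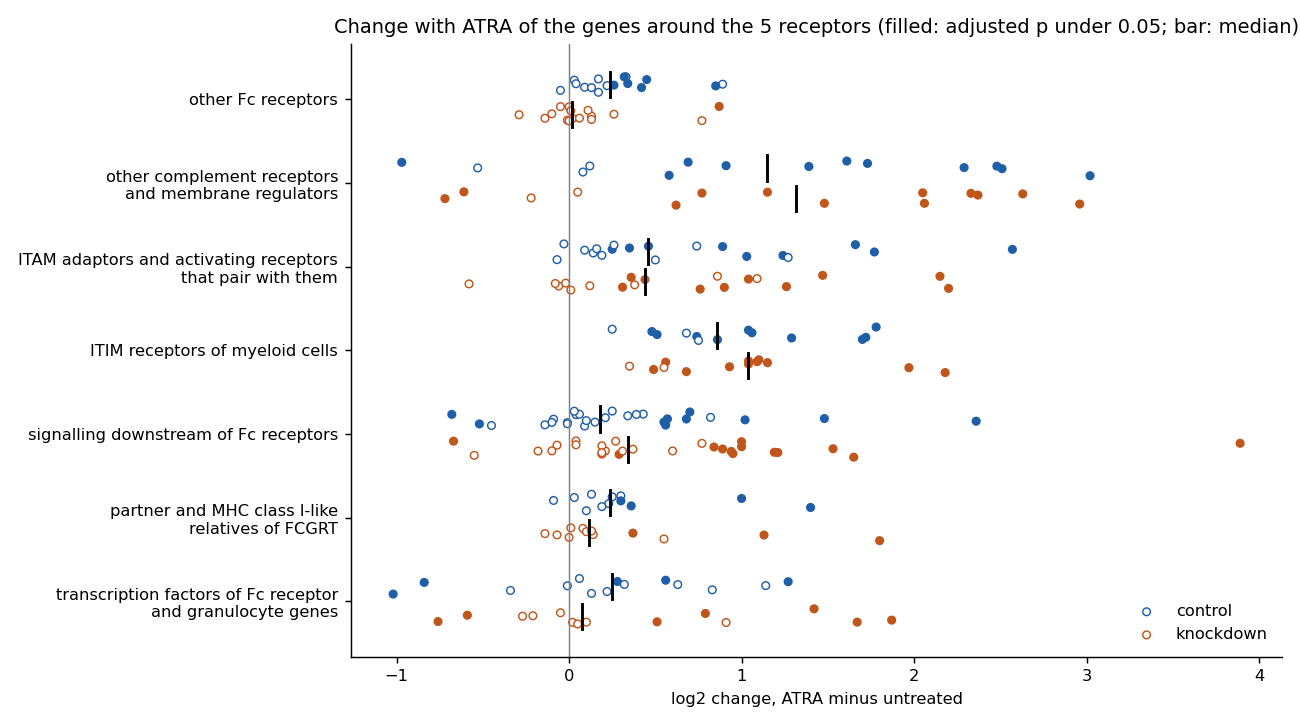
Change in log2 level with ATRA of every measured gene of the 7 lists, in control (blue) and knockdown (orange) cells; filled points have an adjusted p under 0.05 and black bars are medians. Complement receptors (medians 1.15 and 1.31) and ITIM receptors (0.86 and 1.04) lie furthest to the right. The other Fc receptors (0.24 and 0.02), transcription factors (0.25 and 0.07), FCGRT relatives (0.24 and 0.12) and signalling genes (0.18 and 0.34) lie nearer 0.

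The closest genes on the chromosome were read by gene order, 2 measured neighbours on either side of each receptor. Among the 20 neighbours, 7 were called higher and 2 lower with ATRA in control cells, and 6 higher and 2 lower in knockdown cells. The medians were 0.18 and 0.02. For all genes the shares were 15.2% higher and 20.9% lower in control cells, and 10.1% and 14.7% in knockdown cells. The neighbours LILRA1, LILRB1, NCR1, FCGR3A, CD55, CR2 and CD46 also belong to the lists above. CR1 lies between CR2 and CD46 in the cluster of complement regulators, and of its neighbours CD55 (1.39, adjusted p = 0.00251, and 1.15, adjusted p = 0.00987) and CD46 (0.69, adjusted p = 0.00273, and 0.62, adjusted p = 0.0069) rose. FCAR lies in the leukocyte receptor cluster, where LILRB1 was the nearest measured gene on 1 side. LILRB1 rose by 0.48 (adjusted p = 0.0033) and 0.49 (adjusted p = 0.00398). HSPA6, the heat shock gene next to FCGR2A, changed by 0.37 (adjusted p = 0.00289) in control cells and 0.02 in knockdown cells. None of the 4 neighbours of FCER1G changed by more than 0.33 in either direction. Of these, B4GALT3 was called lower in control (-0.33, adjusted p = 0.032) and knockdown cells (-0.33, adjusted p = 0.041). APOA2 was called higher in control cells (0.29, adjusted p = 0.0344).

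The genes most like each receptor over the 12 arrays were found by Pearson's r, given as a description, since all of these genes share the ATRA step and the same arrays. FCER1G was closest to MYD88, the adaptor of Toll-like receptors (r = 0.993), and FCAR to DMXL2, a regulator of the vacuolar proton pump (r = 0.985), with the lysosomal protein CD68 next (r = 0.981). FCGRT was closest to the elongation factor ELL2 (r = 0.986) and FCGR2A to the lipase MGLL (r = 0.968). CR1 was closest to ACSS2, an acetyl-CoA synthetase (r = 0.972), and then to its neighbour CD55 (r = 0.97). Between the receptors, r over the 12 arrays ran from 0.78 (FCAR and CR1) to 0.95 (FCGR2A and CR1). With each arm's mean removed, r between the receptors ran from -0.69 (FCAR and FCGRT) to 0.79 (FCGR2A and CR1). FCER1G and CR1 stood at -0.62, and other pairs lay between, such as FCGR2A and FCGRT at -0.05. These r values were not tested. In untreated cells scrambled replicate 2 and shRNA2 were the highest arrays for FCGR2A and for CR1 alike.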

How the data were processed

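Biotin-labelled cDNA from NB4 total RNA was read on 12 Affymetrix ST arrays. The authors deposited log2 values, made with RMA and limma per the submitters' processing notes; versions, settings and the genome build are not given in the sources used here. Samples were grouped by the labels. Of 32321 probe sets, 19158 were annotated to 1 gene and gave 18404 genes, keeping the probe set with the highest mean over the 12 arrays for 637 genes with several; none was removed for a low value. All values were used as deposited.

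The tests were limma's (version 3.58.1, R 4.3.3; 4 arm means, eBayes, 8 residual degrees of freedom, two-sided, Benjamini-Hochberg over all genes of a contrast, threshold 0.05), checked on simulated data. With 3 arrays against 3, an exact permutation p cannot go below 0.1. The members and gene lists were chosen with earlier results of these data known, so counts over them are descriptions. Named genes were the members, the Fc gamma receptor genes, the 3 of each list with the smallest p in control cells, any list member called in the knockdown comparisons, and the 3 genes most like each member; others named to spell out a count or a neighbour were chosen after their values were seen. The fit with probe sets of several genes was added after seeing the data. Promoters are from RefSeq, GRCh38.p14.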

Additional observations from a re-analysis of the deposited data

How the results depend on the processing

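The 5 receptors kept their ATRA calls in control cells under all alternatives run, and in knockdown cells all but FCGR2A did, as given above. The precision is limited by 3 arrays an arm. None of the receptor differences between knockdown and control was called under any alternative, and signs turned for several of them. With array weights the untreated difference was -0.13 for FCAR and -0.00, just below 0, for FCGR2A, and the response difference of FCER1G was -0.16. Quantile normalization gave a response difference of -0.02 for FCAR, and -0.01 for the FCRL1 change in knockdown cells, as array weights did. With the scrambled and shRNA1 arrays alone the response difference was -0.07 for FCAR, -0.16 for FCER1G and 0.13 for CR1. The untreated difference was then -0.25 for FCGR2A and -0.13 for FCGRT. The FCGR2A rise in knockdown cells was 0.94 (adjusted p = 0.088), and FCRL1 changed by -0.06 in knockdown cells. TRIM21 (0.81, adjusted p = 0.0733) and CLEC4A (0.96, adjusted p = 0.0773) in knockdown cells, CD1C in both and FCRL1, FCER2 and IRF8 in control cells lost their calls with these 8 arrays.

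Leaving out 1 array at a time, the untreated difference ran from -0.08 to 0.37 for FCAR, -0.2 to 0.26 for FCGR2A, -0.08 to 0.06 for FCGRT and -0.89 to 0.14 for CR1. The difference after ATRA ran from -0.14 to 0.07 for FCGRT. The response difference ran from -0.15 to 0.30 for FCAR, -0.23 to 0.38 for FCER1G, -0.15 to 0.06 for FCGRT and -0.75 to 0.28 for CR1. The FCGR2A rise in knockdown cells ran from 0.73 to 1.16. Changes in knockdown cells ran from -0.03 to 0.06 for FCRL1 and -0.03 to 0.11 for FCER2. FCER2 lost its control call without any of 3 arrays: untreated wild type (0.32, adjusted p = 0.059), ATRA-treated wild type (0.24, adjusted p = 0.0828) or ATRA-treated scrambled replicate 2 (0.32, adjusted p = 0.0508).

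Of all genes, 2800 were called higher and 3844 lower with ATRA in control cells. The higher count was 4450 with array weights, 763 with the scrambled and shRNA1 arrays alone, 1723 with only the arms compared, and 1549 to 2762 with 1 array left out. The lower count was 2218 with the scrambled and shRNA1 arrays alone. In knockdown cells 1854 rose and 2714 fell, and with those arrays alone 946 and 1415. After ATRA, 10 genes were higher and 1 lower in knockdown cells. These counts were 138 and 142 with quantile normalization, 44 and 19 with the dimmest genes left out (by mean level, the lowest 33.3%), and 383 and 313 with array weights. They were 0 and 0 with the scrambled and shRNA1 arrays alone or only the arms compared. The lower count was 3 with an intensity trend and 2 with probe sets of several genes. With 1 array left out they ran from 0 to 420 and from 0 to 281, the highest without untreated scrambled replicate 2. The cause of these moves was not tested.

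Arrays were paired into lines by the kind of cell and, for the scrambled and shRNA1 duplicates, by the labels' replicate numbers. The values did not clearly bear out this pairing. Deviations from the arm means correlated at -0.17 for wild type, -0.11 for scrambled replicate 1 and 0.12 to 0.23 for the others. Untreated wild type and untreated scrambled replicate 1 correlated more with the ATRA array of another control line (up to 0.15 and 0.32). With the line as a replicate block no receptor call changed, and the FCGR2A rise in knockdown cells was 0.91 (adjusted p = 0.0108). FCGR2B (0.89, adjusted p = 0.0387) and FCGR3A (0.33, adjusted p = 0.018) passed in control cells with the block. They also passed there with array weights (0.70, adjusted p = 0.0335, and 0.51, adjusted p = 0.003), and FCGR2B with an intensity trend (0.89, adjusted p = 0.0492). In knockdown cells FCGR2B passed with array weights (0.85, adjusted p = 0.0227) and with only the arms compared (0.77, adjusted p = 0.0132).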
